A study of Saccharomyces cerevisiae S288C with 12 samples.

Results

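The 54 genes described here encode enzymes of amino acid biosynthesis in budding yeast, together with Gcn4, the transcription activator that controls many of them. They were taken by symbol from the R64 annotation, which is the sacCer3 build, and all 54 were found among 6002 nuclear protein-coding genes. How reads matching more than 1 place were handled is not given in the sources used here, which bears on the paralog pairs below. The genes comprise 6 genes of arginine synthesis, 7 of histidine, 11 of the branched-chain amino acids, 7 of lysine, 11 of the aromatic amino acids, 5 of sulfur assimilation and methionine, 6 of the aspartate and serine families, and GCN4. Chromatin immunoprecipitation of Cse4, the histone H3 variant of yeast centromeres, was used to ask where the protein lies at these genes. All 3 strains were S288C by their organism label, lacked Psh1 (psh1delta, without the ubiquitin ligase that targets Cse4 for degradation), and expressed Cse4 carrying a 6His-3HA tag from the GAL promoter. One strain made the unaltered protein and is called wild type here, K215/216A had alanine in place of lysines 215 and 216, and K215/216R had arginine there. Cells grew at 30 degrees C in synthetic complete medium with 2% raffinose and received 2% galactose for 2 hours, and the tagged protein was collected on beads with an antibody to HA. The protein was therefore overexpressed in every strain, and no strain with Psh1 or with Cse4 at its normal level is part of the design.

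Yeast makes all of its amino acids, most of them from intermediates of glycolysis and the citric acid cycle. Many of the genes are read at low levels when amino acids are supplied, as in synthetic complete medium, and are switched on together when Gcn4 accumulates during amino acid starvation. Gcn4 is controlled mainly at translation and binds upstream of its target genes. Cse4 normally occupies centromeric nucleosomes, and overexpressed Cse4 is also found at other sites, promoters among them.

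Each strain had 2 immunoprecipitated libraries, each with its own peak list, and the 6 lists held 3123 to 4822 peaks. Depth was recovered as the genome background, in fragments per base: 59.5 and 126.4 (wild type), 146.1 and 148.1 (K215/216A) and 86.2 and 155.9 (K215/216R). Whether the replicates came from separate cultures is not given in the labels, and a p between strains therefore covers only library-to-library spread, which may be technical. A gene was scored in 2 ways. Its window, the gene body with the 500 bp upstream of the annotated start, held a peak when at least 1 base overlapped, and the gene had an upstream summit when the highest point of a peak fell within those 500 bp. Annotated starts are start codons for nearly all genes, since 96.4% of coding lengths were multiples of 3. Positions are in bp from that start, negative upstream. The fold given for a peak is the authors' own value, a ratio of pileup to local background, and was not tested between strains, whose libraries differ in depth. The local background at a gene also differed between libraries, beyond depth, so a difference in fold need not be one in pileup.

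Cse4 was called over most of the pathway genes in every strain, and in a larger share of them than of all genes, a description without a test. A window peak was present at 30 and 38 of the 54 genes in the wild type libraries, where 46.3% and 63.7% of all genes had one. In K215/216A it was present at 39 and 38, against 65.0% and 66.4% of all genes. In K215/216R it was present at 36 and 41, against 52.3% and 65.6%. As shares of the 54 genes these were 55.6% and 70.4%, 72.2% and 70.4%, and 66.7% and 75.9%, above the genome share in all 6 libraries. The windows of the 54 genes had a median length of 1749.5 bp and those of all genes 1700.0 bp.

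Upstream summits were fewer and their shares also lay above those of all genes. They were found at 16 and 19 of the 54 genes in wild type, against 19.0% and 28.3% of all genes. In K215/216A they were found at 23 and 22, against 31.2% and 32.5%, and in K215/216R at 17 and 19, against 23.0% and 28.4%. As shares of the 54 genes these were 29.6% and 35.2%, 42.6% and 40.7%, and 31.5% and 35.2%. Peaks covered 20.4% to 32.5% of the upstream regions of the 54 genes per library, against 12.2% to 23.0% over all genes. The peaks themselves were not unusually high: the median fold in the 54 windows was 1.42 to 1.66 per library, and over all peaks it was 1.43 to 1.66. No peak was shared between the windows of different members.

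**Figure D1:**
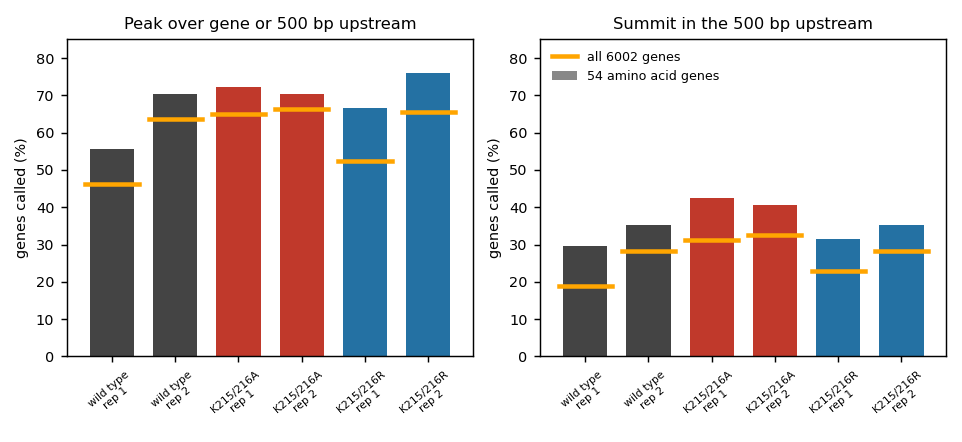
Share of genes called (%) in each of the 6 libraries, for a peak over the gene or the 500 bp upstream (left) and for a summit in the 500 bp upstream (right). Bars are the 54 amino acid genes, coloured by strain, and the orange line is the share of all 6002 genes. The bars lie above the line in all 6 libraries, from 55.6% against 46.3% in wild type replicate 1 to 75.9% against 65.6% in K215/216R replicate 2 for window peaks.

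Membership was uneven across the genes. A window peak in all 6 libraries was found at 26 of the 54 genes (48.1%, against 35.4% of all genes), and 10 genes had none in any library (18.5%, against 19.0%). An upstream summit in all 6 libraries was found at 8 genes (14.8%, against 9.5% of all genes), and 21 genes had none in any library (38.9%, against 51.0%). The 8 genes were ARG1, ARG7, ARG8, LEU4, LYS21, ARO2, ARO4 and THR1. Under a stricter threshold, a −log10 q of 10 or more, the 8 genes became 4 (ARG1, ARG8, LYS21 and ARO2), against 2.18% of all genes.

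**Figure D2:**
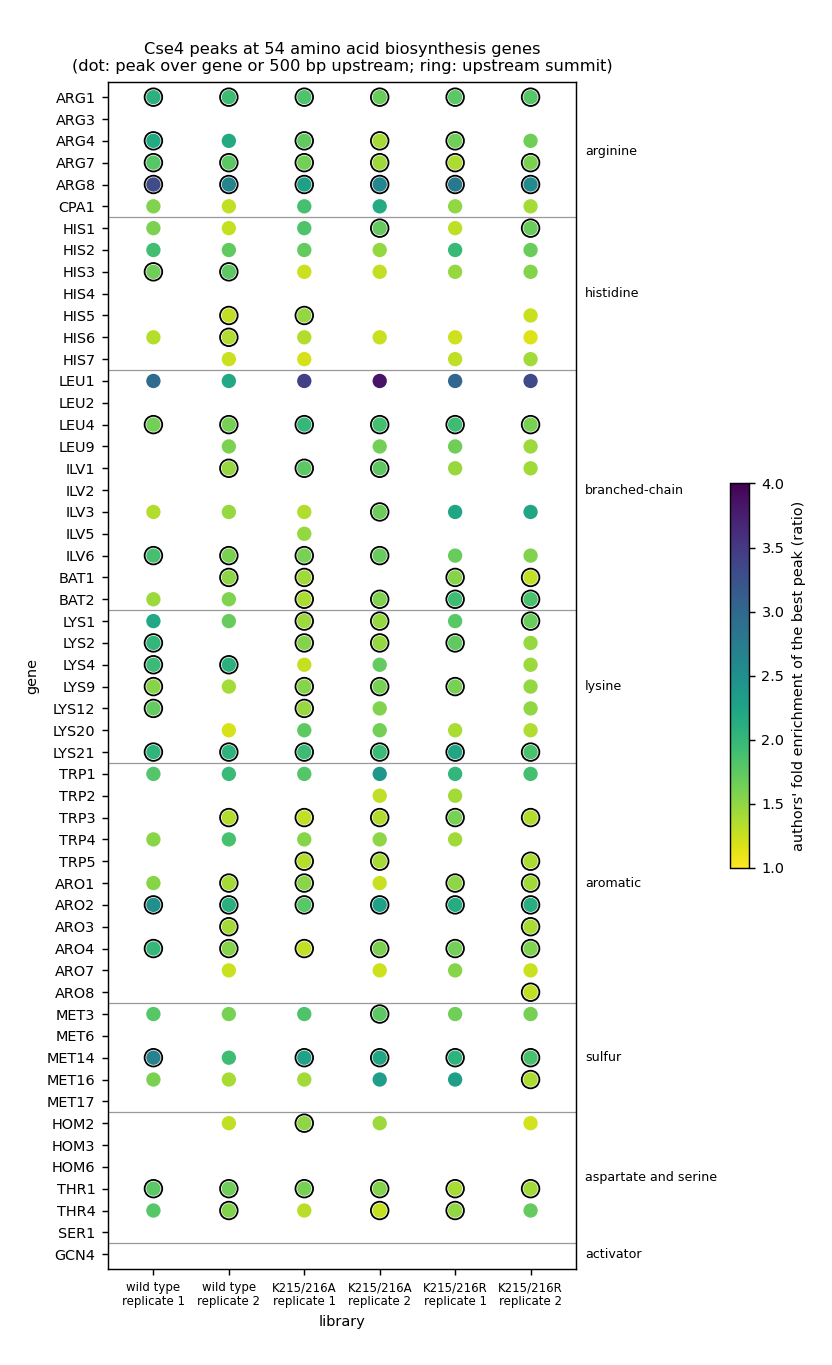
Peaks at each of the 54 genes (rows, grouped by pathway) in the 6 libraries (columns). A dot marks a peak over the gene or the 500 bp upstream, its colour the authors' fold of the best such peak (ratio, scale 1 to 4), and a ring marks an upstream summit. Of the rows, 26 are filled in all 6 libraries and 10 are empty, GCN4 among the latter.

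The same arginine genes had a window peak in all libraries, though not always at the same place. A window peak was present at 5 of the 6 genes in every library, against 46.3% to 66.4% of all genes. The exception was the same gene throughout, ARG3, which encodes ornithine carbamoyltransferase. ARG8 encodes the mitochondrial acetylornithine aminotransferase (chromosome XV, 58759 to 60030). Its upstream peak had a fold of 3.32 and 2.65 (wild type), 2.30 and 2.62 (K215/216A) and 2.79 and 2.58 (K215/216R). These values placed it at percentile 98.5 or higher of the peaks of each library, and the wild type values lay above both K215/216A values while those of K215/216R overlapped both. The local background was 1.0 and 1.01 (wild type), 1.33 and 1.19 (K215/216A) and 1.0 and 1.05 (K215/216R) times the genome background. Whether the fold difference lies in Cse4 or in this background was not tested. The strain means were 2.99 ± 0.48, 2.46 ± 0.23 and 2.69 ± 0.14 (SD, n = 2). Its summit stood at −305 to −303 in all 6 libraries, a range of 2 bp. That position lies inside the neighbouring gene PPM2, whose end is 219 bp before the ARG8 start.

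ARG1, encoding argininosuccinate synthetase (XV, 219211 to 220473), had its summit closer to the gene and between genes. The position was −154 in 5 libraries and −127 in K215/216R replicate 1. Fold was 2.08 and 1.93 (wild type), 1.84 and 1.68 (K215/216A) and 1.77 and 1.79 (K215/216R), so both wild type folds were the highest. The local background was 1.29 and 1.36 (wild type), 1.44 and 1.53 (K215/216A) and 1.33 and 1.44 (K215/216R) times the genome background. Its part in the fold difference was not tested. ARG7, the mitochondrial ornithine acetyltransferase gene (XIII, 395054 to 396379), had a fold of 1.79 and 1.76 (wild type), 1.64 and 1.44 (K215/216A) and 1.37 and 1.60 (K215/216R). Its summit at −362 to −304 also lies upstream of the divergent gene RIM9, so the peak cannot be assigned to either gene.

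ARG4 and CPA1 differed in where their peak lay. ARG4, encoding argininosuccinate lyase (VIII, 140011 to 141402), had a best window peak with a fold of 2.19 and 2.18 (wild type), 1.73 and 1.41 (K215/216A) and 1.65 and 1.66 (K215/216R). Wild type was higher than either mutant in both libraries, but the peaks compared were not all at the same site. In K215/216A replicate 1 the best summit stood at −17, and in the other libraries at −536 to −455. The summit lay just inside the 500 bp limit in wild type replicate 1 (−455) and just outside it in wild type replicate 2 (−534) and K215/216R replicate 2 (−536), so these libraries fell on different sides of the upstream call with nearby summits. CPA1, the small subunit of the arginine-specific carbamoyl phosphate synthetase, had no upstream summit in any library. Its best peak had a fold of 1.57 and 1.28 in wild type and 1.50 and 1.41 in K215/216R, with summits 264 to 565 bp inside the gene. In K215/216A the best peak overlapping the window had a fold of 1.88 and 2.17, with its summit at −921 and −922 inside the gene RAX1.

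Of the 7 histidine genes, upstream summits were found at 1 and 3 (wild type), 1 and 1 (K215/216A) and 0 and 1 (K215/216R). Over all genes the share was 19.0% to 32.5% per library. Window peaks were present at 4 and 6, 6 and 4, and 5 and 6, against 46.3% to 66.4% of all genes. An upstream summit in both libraries of a strain was found only for HIS3 in wild type (all genes: 15.0%, 23.8% and 17.6%). With 7 genes these counts are too small to set the pathway apart. HIS4, a multifunctional enzyme gene, had no peak. HIS1, encoding ATP phosphoribosyltransferase at the start of the pathway, and HIS6 had window peaks in all 6 libraries, HIS7 in 4 and HIS5 in 3. The best folds at these 4 genes ran from 1.16 to 1.84. HIS2, the histidinol phosphatase gene, carried its best peak within the gene in all 6 libraries, near the end of the gene in 5 of them (880 to 1003 bp from the start). That end is also the upstream region of LSB3.

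HIS3, the imidazoleglycerol-phosphate dehydratase gene (XV, 721946 to 722608), had its summit at different places in wild type and in both mutants. The summit stood at −185 in both wild type libraries and at 171, inside the gene, in all 4 mutant libraries, each time at the same base (between libraries of different strains, a median of 22.5% of all summits fell on the same base). The peaks covered nearly the same stretch in all strains: they began at −257 to −188 and ended 175 to 196 bp into the gene. What differed was which end of a shared region was higher, not whether it was called. Fold was 1.66 and 1.74 (wild type), 1.24 and 1.27 (K215/216A) and 1.47 and 1.56 (K215/216R), and the 3 strains did not overlap in fold. The local background was 1.08 and 1.0 (wild type), 1.3 and 1.26 (K215/216A) and 1.28 and 1.13 (K215/216R) times the genome background. It was thus lowest in wild type, and whether the fold difference lies in Cse4 or in this background was not tested. The −185 position is also upstream of the divergent gene MRM1.

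The branched-chain genes ranged from LEU1, whose peak was the highest of the 54 genes in both mutants and second to ARG8 in wild type, to LEU2 and ILV2, which had none. LEU1 encodes isopropylmalate isomerase (VII, 476313 to 478652). A peak that reached into its upstream region had a fold of 2.96 and 2.20 (wild type), 3.42 and 3.84 (K215/216A) and 3.01 and 3.33 (K215/216R). Both mutants were higher than both wild type libraries, and the peak stood at percentile 97.1 or higher of each list. The means were 2.58 ± 0.54, 3.63 ± 0.29 and 3.17 ± 0.22 (SD, n = 2). The summit stood at −627 to −558, between LEU1 and the tandem gene PMA1 and outside the 500 bp limit, so LEU1 had no upstream summit in any library by that limit. The window lies 17.4 kb from the interval between genes that holds the centromere of chromosome VII.

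LEU4 and LEU9 encode paralogous alpha-isopropylmalate synthases, the first committed step of leucine synthesis. LEU4 had an upstream summit in all 6 libraries, with a fold of 1.64 and 1.63 (wild type), 2.00 and 1.90 (K215/216A) and 1.93 and 1.61 (K215/216R). K215/216A was above wild type in both libraries, and the K215/216R values fell on either side of wild type. The summit stood at −328 and −356 in the wild type libraries, at −353 in K215/216R replicate 2, and at −424 or −423 in the other 3 libraries. LEU9 had no upstream summit in any library, and its window peaks, in 4 libraries, had summits 1714 to 1777 bp from its start, at the end of the gene.

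The other branched-chain genes were mixed. ILV2, the catalytic subunit of acetolactate synthase, had no peak in any library, whereas ILV6, its regulatory subunit, had a window peak in all 6. ILV6 had an upstream summit in both libraries of wild type and K215/216A and in neither of K215/216R, at folds of 1.23 to 1.61 with every summit inside the neighbouring gene STP22. In K215/216R replicate 2 a peak from −1236 to −248 (fold 1.57) still covered these positions, with its summit at −1097. ILV3, the dihydroxyacid dehydratase gene, had its best peak inside the gene with a fold of 1.35 and 1.47 (wild type), 1.35 and 1.67 (K215/216A) and 2.22 in each K215/216R library. K215/216R had the higher fold in both libraries, and its local background was the lowest. That background was 1.66 and 1.67 (wild type), 1.8 and 1.38 (K215/216A) and 1.01 and 1.11 (K215/216R) times the genome background. Whether the fold difference lies in Cse4 or in this background was not tested. ILV5, encoding acetohydroxyacid reductoisomerase, had a peak in 1 library only. ILV1, the threonine deaminase gene, had an upstream summit in both K215/216A libraries (fold 1.75 and 1.74, at −473 and −477), in wild type replicate 2 (1.38) and in neither K215/216R library. These ILV1 summits lie inside the divergent gene YER085C. A peak of K215/216R replicate 2 reached from −1126 to −472 (fold 1.43) and so covered these positions at its edge, with its summit at −1031.

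BAT1 and BAT2 encode the mitochondrial and the cytosolic branched-chain aminotransferase. BAT2 (X, 705744 to 706874) had an upstream summit at −432, the same base, in all 4 mutant libraries and in neither wild type library. Its fold there was 1.38 and 1.58 (K215/216A) and 1.94 and 1.86 (K215/216R). In wild type the window peaks of BAT2 had their summits elsewhere, at 1244 and 425, and no wild type peak covered the upstream site. This BAT2 difference held with equal list lengths and after thinning to the lowest depth. At a −log10 q of 10 or more it held for K215/216R and not for K215/216A, whose upstream peaks had a −log10 q of 4.73 and 9.07. BAT1 had an upstream summit in 4 libraries, of all 3 strains, at folds of 1.29 to 1.55.

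Every lysine gene had a window peak in at least 4 libraries, and all 7 had one in both K215/216A libraries, where 57.8% of all genes did. LYS21 and LYS20 encode homocitrate synthases, the first step of the pathway. LYS21 (IV, 227393 to 228715) had an upstream summit at −127 to −124 in all 6 libraries, with a fold of 2.05 and 2.06 (wild type), 1.96 and 1.95 (K215/216A) and 2.22 and 1.86 (K215/216R). The strains overlapped, and the means were 2.05, 1.96 and 2.04. LYS20 had no upstream summit in any library, and no peak at all in wild type replicate 1.

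LYS4, the homoaconitase gene (IV, 931129 to 933210), resembled HIS3. Its summit stood at −67 in both wild type libraries and at 338 in both K215/216A libraries and in K215/216R replicate 2, and K215/216R replicate 1 had no peak. The called regions again nearly coincided, beginning at −173 to −98 and ending 474 to 476 bp into the gene. Fold was 1.95 and 2.08 (wild type), 1.26 and 1.72 (K215/216A) and 1.45 in the K215/216R library with a peak. The local background at LYS4 was 1.38 and 1.21 (wild type), 1.79 and 1.44 (K215/216A) and 1.79 (K215/216R replicate 2) times the genome background. It was lowest in wild type, and its part in the fold difference was not tested. LYS1, the lysine-forming saccharopine dehydrogenase gene, was called upstream in each K215/216A library (fold 1.38 and 1.46) and in K215/216R replicate 2 (fold 1.48 at −340), and in no wild type library. Each of these upstream summits lies inside the neighbouring gene NRE1. In all 6 libraries the best peak of LYS1 lay inside the gene, with a fold of 2.20 and 1.70 (wild type), 1.44 and 1.47 (K215/216A) and 1.78 and 1.69 (K215/216R). LYS2, LYS9 and LYS12, which encode alpha-aminoadipate reductase, the glutamate-forming saccharopine dehydrogenase and homoisocitrate dehydrogenase, had upstream summits in 4, 4 and 2 libraries.

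Among the aromatic genes ARO2 stood out. It encodes chorismate synthase (VII, 226399 to 227529), the last step before the pathway branches to tryptophan, phenylalanine and tyrosine. Its upstream peak had a fold of 2.51 and 2.09 (wild type), 1.78 and 2.29 (K215/216A) and 2.16 and 2.12 (K215/216R). The strains overlapped, and the summit stood at −320 to −317 in all 6 libraries. ARO4 and ARO3 encode the tyrosine-inhibited and the phenylalanine-inhibited DAHP synthase, the entry to the pathway. ARO4 had an upstream summit at −435 to −430 in all 6 libraries (fold 1.28 to 2.00), and ARO3 had one in wild type replicate 2 and K215/216R replicate 2 only, at −5 in both (fold 1.40 and 1.39).

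Of the 5 tryptophan genes, only TRP3 and TRP5 had an upstream summit in any library, where 51.0% of all genes had none. TRP1, the phosphoribosylanthranilate isomerase gene (IV, 461842 to 462516), had a window peak in all 6 libraries and an upstream summit in none. Its best peak had a fold of 1.80 and 1.97 (wild type), 1.80 and 2.41 (K215/216A) and 2.02 and 1.90 (K215/216R), with the summit at 112 in 5 libraries, the same base. TRP5, the tryptophan synthase gene, was the 1 member whose window was occupied in both K215/216A libraries but in no wild type library (5.91% of all genes were of this kind). Its folds there were low, 1.33 and 1.40, and after thinning to the lowest depth it no longer met this condition. Both summits, at −330 and −273, lie inside the neighbouring gene PGD1, which ends 228 bp before the TRP5 start. The 2 peaks ended at −273 and −254, so neither reached beyond PGD1 towards TRP5. TRP3 had an upstream summit in 5 libraries at folds of 1.27 to 1.62. TRP2 and TRP4 had none. ARO1, encoding the pentafunctional arom protein, had a window peak in all 6 libraries, ARO7 (chorismate mutase) in 4, and ARO8 (aromatic aminotransferase) in 1.

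Of the 5 sulfur genes, MET3, MET14 and MET16 had a window peak in all 6 libraries, and MET6 and MET17 had none. The first 3 encode the successive steps of sulfate activation and reduction, ATP sulfurylase, adenylylsulfate kinase and PAPS reductase. MET14 (XI, 438777 to 439385) is the innermost gene of its chromosome arm, so its upstream region is the start of the centromere interval of chromosome XI. Its best window peak had a fold of 2.68 and 1.93 (wild type), 2.27 and 2.21 (K215/216A) and 2.06 and 1.86 (K215/216R). The strains overlapped in fold. In K215/216A the peaks were 1467 and 1531 bp long and ran from beyond the gene to −662, with summits at −499 and −340. The peak of wild type replicate 2 was likewise long, at 1366 bp, and reached −558, with its summit at 430. In wild type replicate 1 the best summit stood at 661, and a separate peak had an upstream summit at −430 (fold 1.8). The best summits in K215/216R stood at 660 and −437. MET3 had a best fold of 1.62 to 1.84. MET16 had one of 1.38 to 2.33, with the summit of each best peak near its end, which is also upstream of MRP2. In K215/216R replicate 2 a weaker MET16 peak had its summit at −18 (fold 1.17). MET6 encodes methionine synthase and MET17 O-acetylhomoserine sulfhydrylase.

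In the aspartate and serine families only THR1 and THR4 had a window peak in all 6 libraries. THR1, the homoserine kinase gene (VIII, 159438 to 160511), had upstream summits at −432 to −366 in all 6 libraries, but at folds of 1.19 to 1.51 and inside the neighbouring gene MAS2. Stronger peaks of 1.39 to 1.77 lay inside THR1. THR4, encoding threonine synthase, had a best fold of 1.26 to 1.79, and its peaks lay over the start of the gene. HOM2 (aspartate-semialdehyde dehydrogenase) had a peak in 4 libraries. HOM3 (aspartate kinase), HOM6 (homoserine dehydrogenase) and SER1 (phosphoserine aminotransferase) had none.

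GCN4 itself (V, 138918 to 139763) had no peak in its window in any of the 6 libraries. The nearest peak lay beyond the end of the gene, 338 to 340 bp outside the window in every library, with a fold of 1.40 to 1.87. The other members with no window peak were ARG3, HIS4, LEU2, ILV2, MET6, MET17, HOM3, HOM6 and SER1. LEU2 encodes beta-isopropylmalate dehydrogenase, and its nearest peak lay 1259 to 1933 bp beyond its end. ILV2 had a peak 79 to 206 bp outside its window, on the upstream side, in all 6 libraries, and MET6 one 200 to 397 bp outside. ARG3 was the most isolated, with the nearest peak 6816 to 11326 bp away. With 1000 bp upstream in place of 500 the 10 genes became 5 (ARG3, HIS4, LEU2, HOM6 and SER1), against 13.9% of all genes. LEU2 and MET17, like HIS3, TRP1 and LYS2, are commonly deleted or mutated as selection markers in laboratory yeast, and the labels do not say whether they were intact here. Absence of a peak at LEU2 or MET17 therefore cannot be told apart from absence of the sequence.

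The design asks whether replacing lysines 215 and 216 alters where Cse4 lies, and the number of pathway genes called did not separate the strains beyond what 2 libraries each can show. Window peaks were present at 34.0 ± 5.66 genes (wild type), 38.5 ± 0.707 genes (K215/216A) and 38.5 ± 3.54 genes (K215/216R; mean ± SD, n = 2). Each mutant exceeded wild type by 4.5 genes (exact permutation p 0.667, two-sided, adjusted 0.889 over 8 comparisons), and both mutants together by 4.5 (exact permutation p 0.267, adjusted 0.667). The mutants differed from each other by 0.0 (exact permutation p 1.0). The excess rested on wild type replicate 1, the shallowest library: when it was left out each mutant exceeded wild type by 0.5, and when replicate 2 was left out, by 8.5. The smallest possible p is 0.33 for 2 libraries against 2 and 0.067 for 4 against 2.

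Upstream summits at the pathway genes were more frequent in K215/216A, by more than the spread between replicates, and rose similarly over all genes. They were present at 17.5 ± 2.12 genes (wild type), 22.5 ± 0.707 genes (K215/216A) and 18.0 ± 1.41 genes (K215/216R; mean ± SD, n = 2). The excess of K215/216A over wild type was 5.0 genes (exact permutation p 0.333, the smallest possible, adjusted 0.667). Both K215/216A libraries were deep, and after thinning to the lowest depth the excess was 3.5 genes. The difference of K215/216R from K215/216A was −4.5 genes (exact permutation p 0.333, adjusted 0.667). For K215/216R against wild type the excess was 0.5 (exact permutation p 1.0), which turned to −1.0 without wild type replicate 1 and −0.5 without K215/216R replicate 2. For the 4 mutant libraries as 1 group the excess was 2.75 (exact permutation p 0.267, adjusted 0.667), falling to 1.25 when wild type replicate 1 was left out and rising to 4.25 when replicate 2 was. As mean shares of the pathway genes, upstream summits were at 32.4% ± 3.93 (wild type), 41.7% ± 1.31 (K215/216A) and 33.3% ± 2.62 (K215/216R). All genes showed the same order, with upstream summits at 23.7% ± 6.57, 31.9% ± 0.942 and 25.7% ± 3.79. The rise from wild type to K215/216A was thus of similar size over all genes. The excess in number was therefore not shown to be particular to the pathway genes.

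The K215/216A excess lay in the far part of the upstream region. Among the 54 genes the best upstream summit lay more than 250 bp from the start at 10 and 10 genes (wild type), 17 and 18 (K215/216A) and 12 and 12 (K215/216R). Within 250 bp it lay at 6 and 9, 6 and 4, and 5 and 7. The far part thus held 62.5% and 52.6% of these genes (wild type), 73.9% and 81.8% (K215/216A) and 70.6% and 63.2% (K215/216R), whereas over all genes it held 49.9% to 54.1% per library. With the upstream limit set at 250 bp, K215/216A minus wild type became −2.0 genes.

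**Figure D3:**
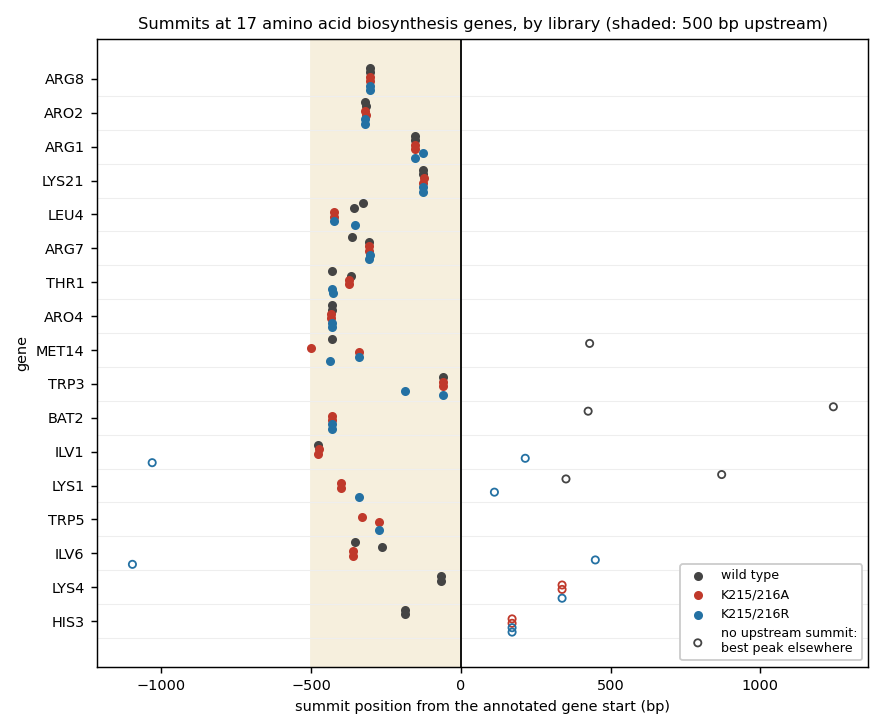
Summit position in bp from the annotated gene start (x axis) for 17 members (y axis), with 1 point per library coloured by strain and the 500 bp upstream shaded. Filled points are upstream summits and open points are the best window peak of a library with no upstream summit. The 6 points coincide within 5 bp at ARG8, ARO2, LYS21 and ARO4, and at HIS3 the wild type points stand at −185 and the mutant points at 171.

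When both libraries of a strain were required to have an upstream summit, 11 of the 54 genes (20.4%) were called in wild type, against 903 of all 6002 genes, or 15.0%. The numbers were 18 (33.3%) in K215/216A, against 23.8%, and 13 (24.1%) in K215/216R, against 17.6%. For window peaks they were 28 (51.9%), 35 (64.8%) and 34 (63.0%), against 43.6%, 57.8% and 49.4%. The lead over all genes depended on the limit: within 250 bp upstream, 3 members (5.56%) were called in K215/216A against 10.8% of all genes, and 4 (7.41%) in wild type against 6.73%.

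Few members were strain-specific with the full peak lists and the 500 bp limit, and which ones depended on the threshold. TRP5, LYS1 and BAT2 had an upstream summit in each K215/216A library but in no wild type library, which is 3 of 54 (5.56%, against 4.9% of all genes). At TRP5 and LYS1 these summits lie inside the neighbouring genes PGD1 and NRE1. The reverse was found at LYS4 and HIS3 (3.70%, against 1.17%), where a peak still covered the site in every mutant library except K215/216R replicate 1 at LYS4. A peak of K215/216R replicate 2 likewise covered the ILV6 and ILV1 sites, so a summit called in 1 strain alone does not show that the other lacked a peak there. ILV6, LYS4 and HIS3 were called in wild type and not in K215/216R (5.56%, against 1.12%), and BAT2 the other way round (1.85%, against 1.32%). For K215/216A against K215/216R the genes were ILV6 and ILV1 (3.70%, against 3.75%), and no member the other way round (0.95% of all genes). For window peaks, TRP5 was the 1 strain-specific member, and the other comparisons held none (all genes: 1.2% and 0.95% for wild type against K215/216A and K215/216R, 3.8% for K215/216A against K215/216R, 1.48% and 1.18% for K215/216R against wild type and K215/216A). LYS4 and HIS3 remained specific to wild type against K215/216A with equal list lengths and after thinning. At a −log10 q of 10 or more LYS4 alone remained, and with 1000 bp upstream neither did. Of the K215/216A genes absent in wild type, TRP5 dropped out with equal list lengths, and after thinning BAT2 alone remained. At a −log10 q of 10 or more none of TRP5, LYS1 and BAT2 remained. The upstream genes were then ILV6, ILV1, MET14 and LEU4. For window peaks they were LYS20, HIS1, ILV1, THR1, LEU4 and CPA1, and LYS1 alone went the other way. The share of all genes was not counted for this comparison at that threshold.

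**Figure D4:**
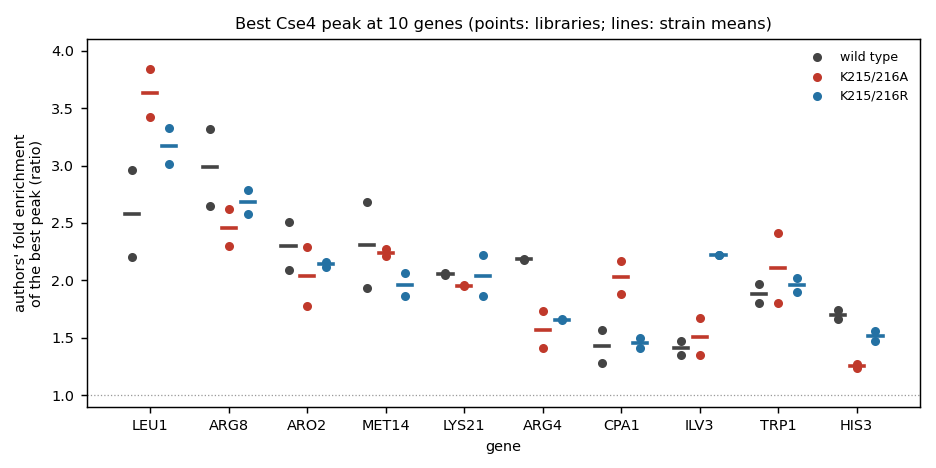
The authors' fold enrichment (ratio, y axis) of the best window peak at 10 members (x axis), with a point per library and a line at each strain mean of 2 libraries. LEU1 is higher in both mutants (3.01 to 3.84) than in wild type (2.20 and 2.96), and ARG4 and HIS3 are higher in wild type than in either mutant. Fold is relative to a local background that differed between libraries, at HIS3 and ILV3 among others. The best peak is not at the same site in every library, at ARG4 and CPA1 among others.

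Features that the choice of genes did not use were also compared. Of the 54 genes 38.9% have a divergent neighbour upstream, against 52.0% of all genes. Among the 21 with a divergent neighbour, the number with an upstream summit in both libraries of a strain was 6 in every strain, not the same genes throughout (28.6%, against 15.1%, 24.2% and 17.4% of all such genes). Among the 33 with a tandem neighbour the numbers were 5, 12 and 7 (15.2%, 36.4% and 21.2%, against 14.9%, 23.4% and 17.9%). The larger number in K215/216A was thus at genes with a tandem neighbour, a comparison that was not tested. Replicate summits were close: where both libraries had an upstream summit, they lay within 20 bp at 7 of 11 members (wild type), 14 of 18 (K215/216A) and 8 of 13 (K215/216R), against 65.3%, 69.3% and 69.4% over all genes. Within 20 kb of a centromere interval lay 6 of the 54 windows (11.1%, against 6.01% of all genes), those of MET14, ILV6, GCN4, TRP1, LEU1 and MET3, at 0 to 18.9 kb. All of these except GCN4 had a window peak in every library, against 35.4% of all genes at any distance. The share among all genes within 20 kb was not counted, so no link to centromere distance is drawn.

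A wider list of 50 other amino acid genes and regulators, drawn up from general knowledge, was counted in the same way. A window peak in both libraries was found at 27 (wild type), 35 (K215/216A) and 32 (K215/216R) of them, or 54%, 70.0% and 64.0%, against 43.6%, 57.8% and 49.4% of all genes. An upstream summit in both libraries was found at 9, 13 and 13, or 18.0%, 26.0% and 26.0%, against 15.0%, 23.8% and 17.6%. A window peak was absent in all 6 libraries at 5, or 10%, against 19.0% of all genes (TYR1, GLT1, GCN1, ARG2 and AAT1). The 3 with the highest mean percentile of fold were MET13, MET2 and MET28, at 95.5, 92.5 and 92.3. MET13, a methylenetetrahydrofolate reductase gene, had its best peak 98 bp inside the gene in 5 libraries, at folds of 1.84 to 2.41.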

How the data were processed

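Cse4 immunoprecipitates from 3 strains were sequenced in 6 libraries, 2 per strain, grouped by the strain labels. The 6 input libraries and the authors' 3 merged lists were not used here. Per the submitters' processing notes, Bowtie 1.0.0, MACS2 2.1.1.20160226 and bedtools 2.25.0 were used with the sacCer3 build. The control given to the caller and the filters before it are not given in the sources used here, and the local background follows the input or the immunoprecipitate accordingly. The authors deposited 1 peak list per library, with a fold (ratio of pileup to local background), the −log10 p and −log10 q at the summit, a score that is a rescaled −log10 q, and the summit offset.

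Peaks were overlapped with gene windows in Python 3.11.15 with numpy 2.4.6, pandas 2.3.3 and scipy 1.17.1, after tests on simulated data. Gene positions came from the RefSeq table of R64, with strand read from the systematic name. A summit is the deposited start plus the offset. Pileup and local background were recovered from fold and p, with a whole-number pileup within 0.005, and each library's depth was read as its lowest local background. Fold was ranked only within a library, as a percentile. The numbers of genes called were compared by exact permutation over libraries, two-sided, with Benjamini-Hochberg adjustment over 8 comparisons and a threshold of 0.05.

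Alternatives were a 50% overlap of the peak, a −log10 q of at least 10, lists cut to 3123 peaks each, pileups thinned to the lowest depth, upstream limits of 250 and 1000 bp, each library left out, and a replicate block. Same-numbered libraries did not deviate together in fold, and the main tests are unpaired. Replicate 1 had fewer peaks and less depth than replicate 2 in every strain, which the check on fold does not measure. Genes named with values were those with an upstream summit in all libraries or a window peak in none, strain-specific genes, the 5 with the highest mean percentile in each strain, genes with no upstream summit, and GCN4. ARG4, THR4, ILV5, BAT1, LYS2, LYS9, LYS12, ARO1, ARO3, ARO8, TRP3, HOM2, HIS2, MET3 and MET16 are named to account for every pathway. The genes and lists were chosen with earlier results of these data known. Promoter motifs were not analysed here.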

Additional observations from a re-analysis of the deposited data

How the results depend on the processing

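Of the recomputed values, 114 kept their direction and their side of the threshold or stayed within the limits set for a count, 13 moved and 6 reversed, and in each case below the cause was not tested unless fewer peaks or a changed window made it. No comparison between strains passed the threshold in the main test or in any alternative, and the design could not have passed it. A −log10 q of at least 10 left window peaks in both libraries at 12 (wild type), 16 (K215/216A) and 14 (K215/216R) genes (all genes: 11.1%, 20.7% and 16.7%), and upstream summits at 5, 8 and 6 (all genes: 3.75%, 8.2% and 5.91%). An upstream limit of 1000 bp raised upstream summits in both libraries to 19, 33 and 24 genes (all genes: 29.2%, 41.7% and 33.8%), and a limit of 250 bp lowered them to 4, 3 and 4 (all genes: 6.73%, 10.8% and 7.63%). The 250 bp limit also reversed the differences in upstream summits: K215/216A minus wild type became −2.0, K215/216R minus wild type −1.0, both mutants minus wild type −1.5, and K215/216R minus K215/216A 1.0. Leaving out 1 library at a time, K215/216R minus wild type in upstream summits ranged from −1.0 to 2.0, negative without wild type replicate 1 or K215/216R replicate 2. Genes with an upstream summit in every remaining wild type library ranged from 16 to 19, and are necessarily more than with both libraries required.

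The replicate numbers did not pair the libraries in fold: over 2124 genes with a window peak in all 6 libraries, the log fold deviations of replicate 1 from the strain mean correlated between strains at −0.0346, −0.00693 and −0.0261. These correlations cannot show a shared shift in depth or in number of peaks, and replicate 1 was the lower in both in every strain. With the number as a replicate block, K215/216A exceeded wild type by 4.5 genes for window peaks (exact sign-flip p 1.0) and by 5.0 for upstream summits (exact sign-flip p 0.5, the smallest possible), and no call changed. After thinning to the lowest depth, K215/216A exceeded wild type by 3.0 and 3.5 genes. Depth limits what a missing peak shows: wild type replicate 1 was the shallowest library, and a missing peak there cannot be told apart from one below detection. Thinning cannot restore peaks that this library missed.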

Other observations

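Summits fell on the same base in different libraries for a large share of peaks, at the amino acid genes as elsewhere. Of the summits in the 54 windows, 37.8% to 57.6% per library stood at a base that was also a summit in at least 1 of the other 5 libraries, against 44.5% to 53.5% of all summits. Over all peaks, a median of 23.6% of summits coincided between the libraries of a strain and 22.5% between libraries of different strains. Peak starts coincided for 12.0% and 10.7%, and peak ends for 12.2% and 10.8%. No whole peak was identical between any of the 15 pairs of libraries in its start, end and fold. BAT2 at −432 and TRP1 at 112 are cases among the genes named above.

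MET17, which had no window peak, had its nearest peak 341 and 352 bp outside the window on the upstream side in K215/216A, and 1031 to 3938 bp outside it in the other strains. HOM3 had its nearest peak 156 to 220 bp outside the window in 5 libraries and 1964 bp outside it in wild type replicate 1.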
